A study of Homo sapiens with 2 samples.

Results

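The genes described here are 33 enzymes and transporters of glucose metabolism: glucose carriers, every step of glycolysis from hexokinase to pyruvate kinase, the regulators of phosphofructokinase, the pentose phosphate enzymes, a pair of gluconeogenic enzymes and a phosphoglucomutase. They were chosen by symbol from a table of 29972 human genes. Of them 32 were found by name, and TIGAR was found under its older symbol, C12orf5, through the synonyms in the RefSeq gene table. RNA came from 2 xenografts of the NCI-N87 line, human gastric cancer cells with amplified ERBB2, grown under the skin of nude mice: 1 untreated, and 1 labelled refractory to T-DM1 (trastuzumab emtansine), an antibody against HER2 that carries a microtubule poison. Per the labels the drug was given every 3 weeks for 18 weeks. The strain of nude mouse, its age, the dose and the number of animals behind each library were not given in the sources used here. Each group is 1 library, so no difference below has a replicate check, no test across samples was possible, and differences that arise between any 2 tumours cannot be told apart from those of treatment.

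Glycolysis splits glucose into pyruvate and yields ATP without oxygen. The pentose phosphate pathway branches from it at glucose phosphate, making NADPH in an oxidative arm and ribose in a reversible, non-oxidative arm whose products return to glycolysis. Several steps are served by isozymes from separate genes, which differ in regulation and tissue, and many tumours express the isozymes of fetal or proliferating tissue. Many glycolytic genes are known targets of hypoxia-inducible factor (HIF), and several pentose phosphate genes are known targets of NRF2.

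The untreated library held 75722114 rounded counts and the refractory library 59902712, and 13613 and 13228 genes reached 1 CPM (read counts scaled by library size). ERBB2 stood at 7267 and 7975 CPM, and all 10 fixed epithelial markers were at 78.2 CPM or more in both libraries, with 0 called. Of 10 immune markers 3 were at 1 CPM or more, all 3 called higher in the refractory tumour. They were LYZ (27.2 and 95.9 CPM), CD68 (3.62 and 29.2 CPM) and ITGAM (0.419 and 3.32 CPM). The summed level of the list went from 31.3 to 129 CPM, most of it LYZ. PTPRC stood at 0.0654 and 0.287 CPM, CD163 had 4 and 1 counts, and CSF1R had 0 and 3. The T and B cell markers, 4 of 10, were at 0 in both. Summed fibroblast markers stood at 3.19 and 3.02 CPM, with 4 of 9 at 0 in both, and endothelial markers at 2.63 and 0.303 CPM, with 1 of 6 at 0 in both. Of 8 markers of red cells, muscle and fat 2 reached 1 CPM in either library, and 5 were at 0 in both. DES was called lower (2.46 and 0.253 CPM). All these markers are human genes and the host is a mouse, so their levels do not measure host cells directly. From which species the marker reads derive was not tested. The part of marker reads in the differences below was not tested. In bulk tumours, fewer cells of a type and less RNA per cell cannot be told apart.

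The promoters of 4 genes are shown to set the sequence beside the changes, and all 4 genes were called higher. ENO1 and ENO2 are isozymes that were higher by nearly the same factor, and FBP1 is the member with the largest change. HK2 has 2 windows. The 1 shown was chosen because it held more matches, and it held the most of any member window. Each sequence is a RefSeq window on GRCh38.p14 from 250 bases before to 50 bases after an annotated start, written along the gene's strand. Capitals mark ACGTG and GCGTG, the core letters that HIF recognises, on either strand (on the opposite strand they read CACGT and CACGC).
ENO1, chr1:8878637-8878936, minus strand: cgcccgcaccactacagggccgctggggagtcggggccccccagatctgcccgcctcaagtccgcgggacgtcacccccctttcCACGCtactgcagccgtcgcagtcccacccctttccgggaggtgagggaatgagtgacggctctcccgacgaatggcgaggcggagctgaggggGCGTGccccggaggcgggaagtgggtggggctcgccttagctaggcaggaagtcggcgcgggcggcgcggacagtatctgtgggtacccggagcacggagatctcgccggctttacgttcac
ENO2, chr12:6914330-6914629, plus strand: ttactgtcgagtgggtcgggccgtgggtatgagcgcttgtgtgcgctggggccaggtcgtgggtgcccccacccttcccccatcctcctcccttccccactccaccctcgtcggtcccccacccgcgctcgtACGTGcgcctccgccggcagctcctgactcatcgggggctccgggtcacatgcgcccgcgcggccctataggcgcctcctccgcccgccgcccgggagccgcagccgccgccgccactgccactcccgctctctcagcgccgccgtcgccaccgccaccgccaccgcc
HK2, chr2:74834920-74835219, plus strand: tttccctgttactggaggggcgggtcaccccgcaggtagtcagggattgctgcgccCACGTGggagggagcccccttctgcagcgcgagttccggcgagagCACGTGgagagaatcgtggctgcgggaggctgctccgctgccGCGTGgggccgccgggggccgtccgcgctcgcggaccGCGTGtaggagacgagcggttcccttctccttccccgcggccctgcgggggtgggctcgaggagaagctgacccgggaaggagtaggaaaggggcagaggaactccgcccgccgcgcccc
FBP1, chr9:94639469-94639768, minus strand: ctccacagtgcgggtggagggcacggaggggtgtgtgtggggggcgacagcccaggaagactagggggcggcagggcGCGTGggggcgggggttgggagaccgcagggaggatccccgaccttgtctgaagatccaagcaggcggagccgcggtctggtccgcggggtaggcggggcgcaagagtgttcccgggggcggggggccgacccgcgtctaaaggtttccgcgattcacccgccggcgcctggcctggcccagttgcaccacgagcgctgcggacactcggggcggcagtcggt
ENO1 had 2 matches and ENO2 and FBP1 had 1 each. The HK2 window shown had 6 matches in 4 stretches, because ACGTG on opposite strands overlaps in the palindrome CACGTG. That palindrome is also the E-box that MYC and other factors bind. The other HK2 window (chr2:74833877-74834176) had 3 matches. The window shown lies after the coding start of HK2 given below (74834581). RefSeq windows were matched for 31 members, 54 windows in all since several genes have more than 1 start, and 31 windows (57.4%) held a match against 48.4% of 35116 windows of all genes. The 8 members called higher had a match in at least 1 window for 7 genes, TKT being the exception. Of all 31 matched members, these 7 included, 24 did. Genes with more windows have more chances of a match, and the share per gene was not computed over all genes. Windows of 1 gene can overlap and are not separate counts, and the shares of 57.4% and 48.4% were not tested against each other. Of members not called, ALDOC held 5 matches in 1 window and PGK1 held 4, while PCK2, PGAM1, PGLS, RPE and TALDO1 held 0. The lower member PFKM held 2 in 7 windows. A match is a description of letters and not evidence of binding.

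At a 2-fold difference with 1 CPM added to both libraries, 8 members were higher in the refractory tumour and 2 lower. A gene was described if it reached 1 CPM in either library. That held for 32 of the 33 members and left out HK3. The 8 are 25.0% of the described members, where 9.80% of 14167 described genes were called higher. The 2 are 6.25%, where 11.0% of all described genes were called lower. The median log2 difference (refractory over untreated) was 0.40 over the members and 0.03 over all described genes. Among genes of at least 10 CPM, 8 of 28 members were called higher (28.6%) against 9.44% of 10356 genes, and 2 lower (7.14%) against 8.89%. By the deposited FPKM, a level per gene length, the members together took 0.782% of the untreated and 0.966% of the refractory total.

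**Figure D1:**
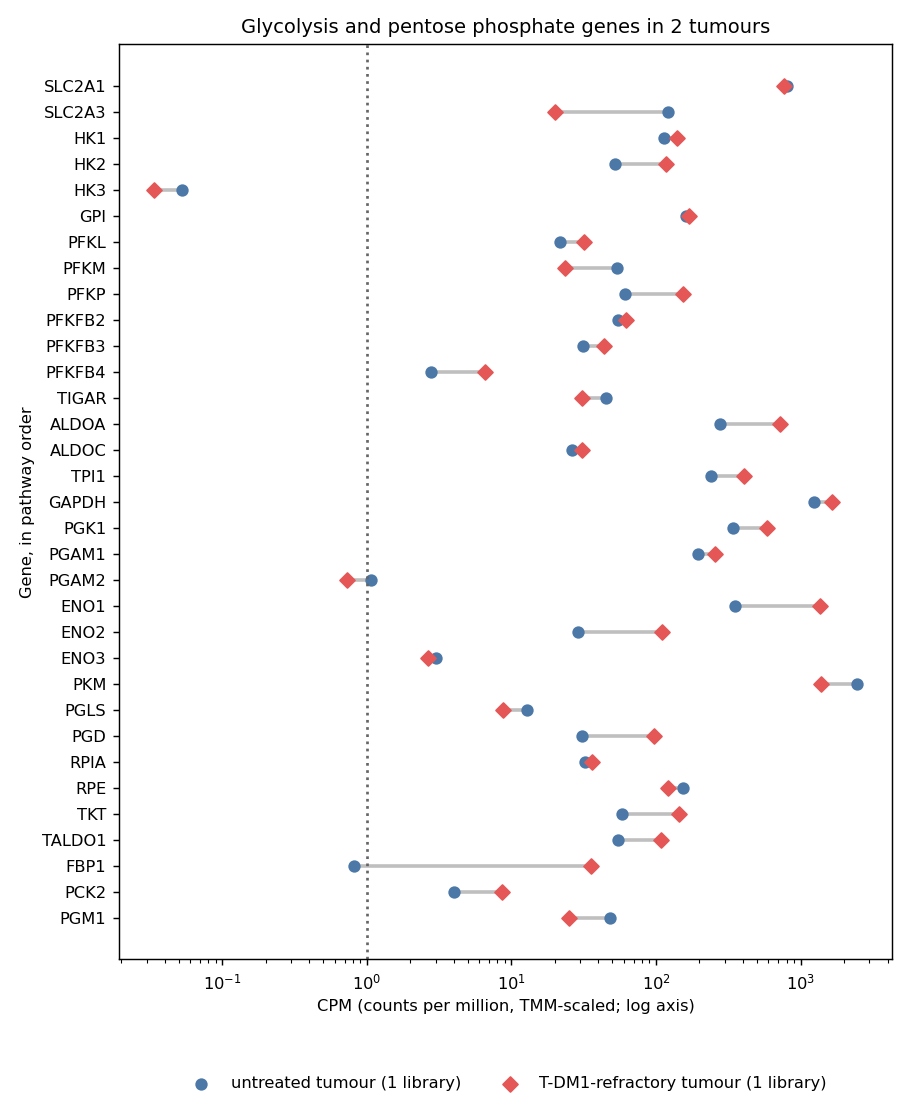
Level of each of the 33 genes in CPM on a log axis, in pathway order from top to bottom, with a circle for the untreated and a diamond for the refractory tumour (1 library each, so no error bars); the dotted line is 1 CPM. FBP1, ENO1, ENO2 and PGD lie far to the right of their untreated value, and SLC2A3 and PFKM far to the left.

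The main glucose carrier was near level between the tumours, and a lesser one was lower. SLC2A1, which encodes GLUT1, the carrier of most proliferating cells, had 810 CPM in the untreated tumour against 764 CPM in the refractory one, which gives a ratio of 0.943 (95% interval 0.932 to 0.955). SLC2A3, which encodes the high-affinity carrier GLUT3 (chromosome 12, 7921413 to 7936034), stood at 121 and 19.9 CPM, 6.10-fold lower (95% interval 5.74 to 6.48). All intervals are exact for 2 Poisson counts and cover counting error only. Per length, SLC2A1 made up 87.8% of the FPKM of this pair in the untreated and 97.6% in the refractory tumour. SLC2A3 is nearly identical to its neighbour SLC2A14, and its deposited counts are fractional (9281.99 and 1181.33), so some reads were divided between genes. SLC2A14 had 40.01 and 127.67 counts. The part of this division in the difference was not tested. The genes around SLC2A3 were also lower, with a median log2 of -0.61 over its 20 nearest described genes.

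Hexokinases trap glucose in the cell by phosphorylation, and their make-up differed between the tumours. HK1, the widely expressed form, stood at 114 and 140 CPM (ratio 1.23, 95% interval 1.195 to 1.27). HK2, the inducible form of muscle and many tumours (chromosome 2, 74834581 to 74890941), stood at 51.8 and 117 CPM, a ratio of 2.26 (95% interval 2.17 to 2.35). HK3, the form of myeloid cells, had 4 and 2 counts and is not compared. Among the 3 listed genes, the HK2 share of FPKM went from 20.9% to 32.8%. A hexokinase outside the listed members differed more: HKDC1, a hexokinase of gut epithelium, stood at 19.3 and 151 CPM, a ratio of 7.84 (95% interval 7.42 to 8.29). With HKDC1 and glucokinase (0 counts in both) in the family, HK1 went from 69.9% to 39.3% of the FPKM, HKDC1 from 11.5% to 41.4%, and HK2 from 18.5% to 19.2%. GPI, the isomerase after hexokinase, stood at 162 and 169 CPM.

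Phosphofructokinase, the committed step, showed the widest exchange between isozymes by share of FPKM among the listed members. With HKDC1 counted, HK1 changed by -30.6 points, more than the 27.6 points of PFKP. PFKP, the platelet form common in tumours (chromosome 10, 3067596 to 3136579), stood at 61.5 and 154 CPM, 2.51-fold higher (95% interval 2.42 to 2.599). PFKM, the muscle form (chromosome 12, 48107374 to 48145708), stood at 53.5 and 23.4 CPM, 2.29-fold lower (95% interval 2.15 to 2.43). PFKL, the liver form, stood at 21.8 and 31.7 CPM (ratio 1.45, 95% interval 1.36 to 1.55). Per length PFKP went from 48.3% to 75.9% of the family, PFKM from 36.2% to 10.05% and PFKL from 15.5% to 14.05%. The ratio of PFKP to PFKM in FPKM was 1.33 in the untreated and 7.55 in the refractory tumour, while the summed FPKM of the 3 genes went from 53.96 to 85.1.

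The enzymes that tune phosphofructokinase differed less. PFKFB2 (54.3 and 62.2 CPM) and PFKFB3 (31.3 and 43.5 CPM), both kinase-phosphatases that make or remove a sugar activator of that step, were not called. PFKFB4 was low, at 2.77 and 6.52 CPM. Its plain ratio was 2.35 (95% interval 1.98 to 2.79), and with 1 CPM added its log2 was 0.996, just under the threshold. TIGAR, a phosphatase induced by p53 that lowers the same activator (chromosome 12, 4321272 to 4352691), stood at 45.0 and 30.8 CPM, a ratio of 0.684 (95% interval 0.646 to 0.724).

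**Figure D2:**
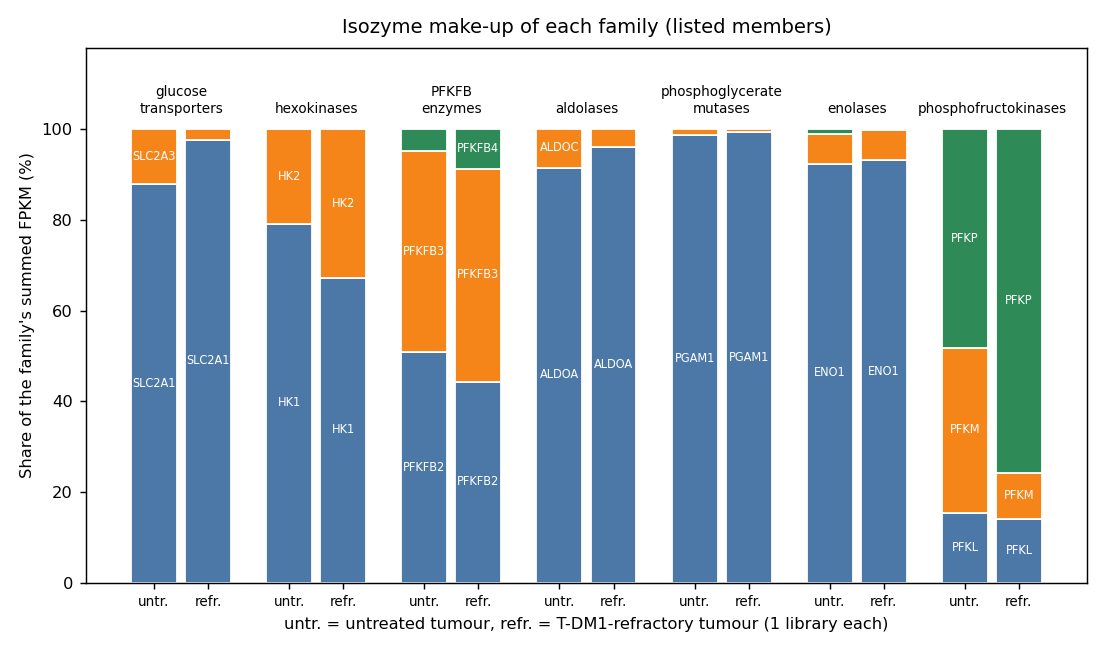
Share of each isozyme in the summed FPKM of its family (vertical axis, percent) in the untreated (left bar) and refractory (right bar) tumour, 1 library each; colours separate isozymes within a family, and segments too thin to label in 1 or both tumours are HK3, PFKFB4, PGAM2, ENO2, ENO3, ALDOC and SLC2A3. Among these listed members the phosphofructokinases show the largest exchange, PFKP going from 48.3% to 75.9%, and enolases almost none.

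In the lower part of glycolysis, aldolase and enolase had members called higher, and the genes of the steps between them did not pass 2-fold. ALDOA, the main aldolase (chromosome 16, 30067255 to 30070212), stood at 277 and 723 CPM, a ratio of 2.61 (95% interval 2.57 to 2.66), while ALDOC, the brain form, stood at 26.2 and 30.8 CPM. TPI1, the triosephosphate isomerase, stood at 240 and 407 CPM (ratio 1.70), and PGK1, the first ATP-yielding kinase, at 342 and 588 CPM (ratio 1.72). GAPDH, the oxidising step and a common reference gene, stood at 1244 and 1653 CPM (ratio 1.33, 95% interval 1.32 to 1.34), and PGAM1, the mutase, at 195 and 258 CPM (ratio 1.32). PGAM2, the muscle mutase, was close to the 1 CPM limit at 1.07 and 0.725 CPM.

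The enolases had the largest factor of the glycolytic steps proper. ENO1, the ubiquitous form (chromosome 1, 8861360 to 8868018), stood at 352 and 1372 CPM, a ratio of 3.90 (95% interval 3.85 to 3.95). ENO2, the neuronal form also seen in hypoxic and neuroendocrine cells (chromosome 12, 6915833 to 6922800), stood at 28.9 and 110 CPM, a ratio of 3.79 (95% interval 3.61 to 3.98). Because both were higher by a similar factor, the ratio of ENO2 to ENO1 in FPKM was 0.0732 and 0.0712, and the ENO1 share of the family was 92.3% and 93.1%. ENO3, the muscle form, stood at 3.02 and 2.65 CPM.

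Pyruvate kinase did not pass 2-fold, and its level was below that of the untreated tumour. PKM, the last enzyme of the pathway (chromosome 15, 72199650 to 72228626), stood at 2471 and 1382 CPM, 1.79-fold lower (95% interval 1.77 to 1.80), which did not reach 2-fold. The table gives 1 value for the gene, so its M1 and M2 splice forms were not separated. In the untreated tumour PKM was level with GAPDH per length (1122 and 1139 FPKM), and in the refractory tumour it was well below it (619 and 1498 FPKM). The ratio of PKM to ENO1 in FPKM was 6.03 in the untreated and 0.866 in the refractory tumour. Ranked by FPKM among described genes, PKM went from place 53 to 108, ENO1 from 327 to 94 and GAPDH from 51 to 40.

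The oxidative pentose phosphate arm was split by gene. PGD, the phosphogluconate dehydrogenase that makes NADPH (chromosome 1, 10399118 to 10419749), stood at 30.9 and 96.8 CPM, a ratio of 3.14 (95% interval 2.99 to 3.29). PGLS, the lactonase just before it, stood at 12.9 and 8.78 CPM, a ratio of 0.681 (95% interval 0.611 to 0.758). The ratio of PGD to PGLS in FPKM was 1.09 in the untreated and 4.97 in the refractory tumour.

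In the non-oxidative arm, of the enzymes that exchange carbon with glycolysis 1 was called higher and the other stood just under 2-fold, and neither enzyme that interconverts pentoses was called. TKT, the transketolase (chromosome 3, 53225756 to 53255942), stood at 58.0 and 143 CPM, a ratio of 2.47 (95% interval 2.38 to 2.56). TALDO1, the transaldolase, stood at 54.8 and 109 CPM, a ratio of 1.99 (95% interval 1.91 to 2.07). RPIA, the ribose isomerase, stood at 32.5 and 35.9 CPM and RPE, the ribulose epimerase, at 154 and 122 CPM. RPE has a near copy, RPEL1, with 10 and 12 counts, and its own counts are fractional. The summed FPKM of the 4 genes went from 156 to 247.

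FBP1, fructose bisphosphatase, which runs against phosphofructokinase in gluconeogenesis (chromosome 9, 94603381 to 94639310), had the largest difference of all members. It had 0.811 CPM (62 counts) in the untreated tumour against 35.6 CPM (2114 counts) in the refractory one, 43.9-fold higher (95% interval 34.1 to 57.5). The untreated level is under 1 CPM, so the log2 difference depended on the amount added: 4.34 with 1 CPM, 5.29 with 0.1 CPM and 2.81 with 5 CPM. Per length it went from 0.782 to 31.7 FPKM, where the 3 phosphofructokinases together had 53.96 and 85.1 FPKM. PCK2, the mitochondrial enzyme that makes phosphoenolpyruvate, stood at 3.98 and 8.65 CPM. Its plain ratio was 2.17 (95% interval 1.88 to 2.51), and its log2 with 1 CPM added was 0.96. PGM1, which links glucose phosphate to glycogen, stood at 47.9 and 25.2 CPM, 1.90-fold lower (95% interval 1.79 to 2.02). A p-value under 0.05 in the authors' deposited table was held by 2 members, FBP1 (2.83e-05) and SLC2A3 (0.0223), where 7.20% of all rows had one. That p sets 1 library against 1 and is not a test of the condition.

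Position on the chromosome was compared for each member through its 10 nearest described genes on each side, other members left out. ENO1 and PGD lie on chromosome 1 in a stretch whose genes were higher together: the neighbours' median log2 was 1.08 around ENO1, with 11 of 20 called higher, and 0.97 around PGD, with 9 of 20. The 2 sets share 9 genes. With the neighbours' median subtracted, ENO1 stood at 0.88 and PGD at 0.64, both under the threshold. ENO2 lies elsewhere, on chromosome 12, and kept 1.70 against neighbours at 0.18. For the other 6 members called higher the neighbours' median was between -0.01 and 0.29. HK2, PFKP, ALDOA, ENO2, TKT and FBP1 stood 1.02 to 4.33 above it. PFKP had the highest of these medians, 0.29, with 6 of 20 neighbours called higher, and stood 1.02 above its neighbours. PFKM, at -1.16, had neighbours at 0.18. PGLS, at -0.51, had neighbours at -0.78, the lowest of any member, with 7 of 20 called lower. The part of these neighbourhood shifts in the members' own values was not tested.

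**Figure D3:**
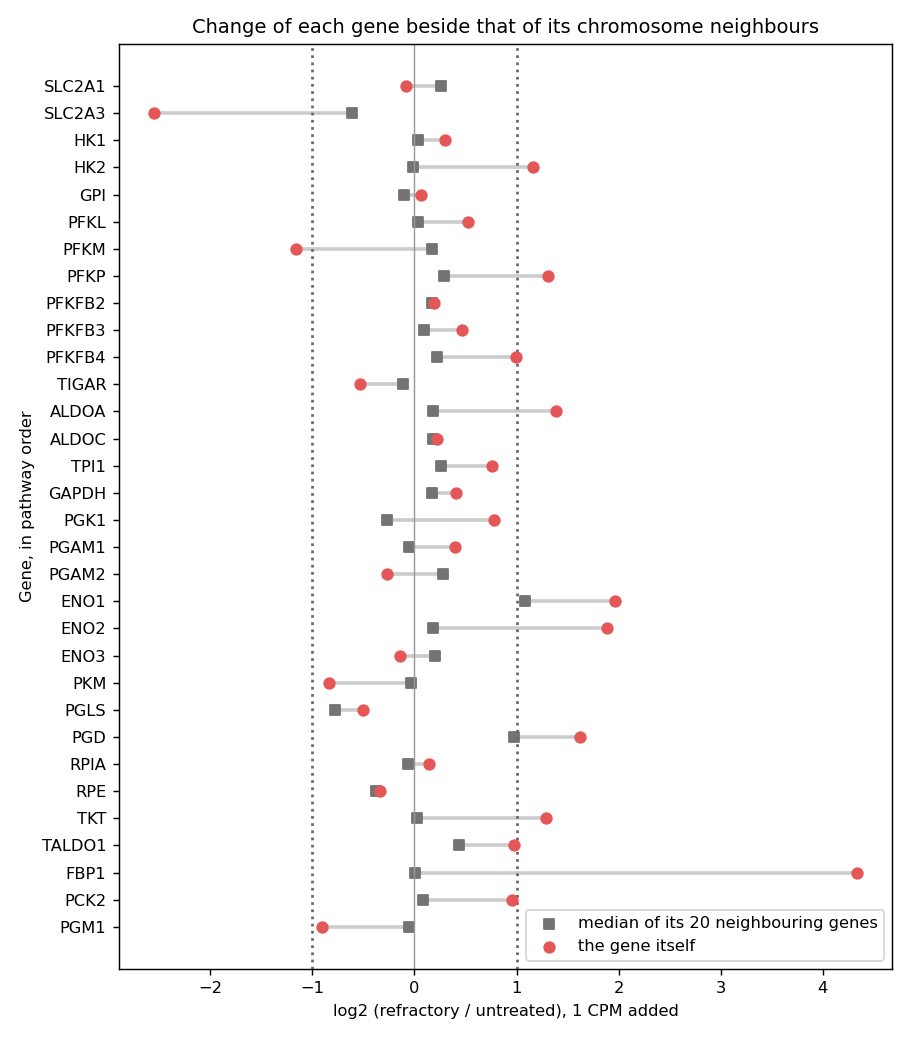
Log2 of refractory over untreated with 1 CPM added (horizontal axis) for each of the 32 described members (circle) and the median of its 20 nearest described genes (square); dotted lines mark a 2-fold difference. ENO1 and PGD have neighbours near 1, whereas ENO2, FBP1, HK2, ALDOA and TKT have neighbours near 0.

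The short arm of chromosome 12 carries 5 members, which did not move as a block. ENO2 was called higher and SLC2A3 lower, and TPI1, GAPDH and TIGAR were between, with log2 values of 0.76, 0.41 and -0.53. TPI1 and ENO2 are close to each other (6867456 and 6915833), with neighbours at 0.26 and 0.18.

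The rest of the pathway was described through 127 other genes in 8 lists, of which 99 reached 1 CPM, 12 were called higher and 9 lower, with a median log2 of 0.24. These shares are near those of all described genes, 9.80% higher and 11.0% lower, and the counts of the single lists below are small. Of 8 described genes of transport and hexose phosphorylation 3 were lower and 1, HKDC1, was higher (median -0.67). SLC2A10 stood at 27.4 and 1.72 CPM and SLC2A12 at 97.9 and 34.7 CPM. Among the listed pair and 8 other SLC2A genes of this list (SLC2A14 is not on it), SLC2A1 held 77.4% of their FPKM in the untreated and 92.1% in the refractory tumour.

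After pyruvate, 1 of 26 described genes was higher and 2 lower (median 0.26). PDK1, a kinase that closes pyruvate dehydrogenase, stood at 20.6 and 42.9 CPM. Its relatives, named with their values already known, were not called: PDK2 (12.4 and 14.4 CPM), PDK3 (117 and 120 CPM) and PDK4 (4.88 and 9.19 CPM). LDHB, the lactate dehydrogenase of the heart type, had 253 CPM in the untreated tumour and 0 counts in the refractory one, at least 4994-fold lower at a floor of 3 counts in that library. EMB, a chaperone of lactate carriers, stood at 250 and 51.3 CPM. LDHA, named with its values already known, had 405 and 788 CPM, and its ratio to PKM in FPKM was 0.189 and 0.657.

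Among 10 described pentose and ribose genes 1 was higher, H6PD (28.2 and 67.2 CPM), the glucose dehydrogenase of the endoplasmic reticulum. It lies between ENO1 and PGD, with neighbours at 1.07. Of 5 other glycolytic genes 1 was higher, GALM, the mutarotase (3.96 and 9.47 CPM). Of 4 gluconeogenic genes 1 was higher, SLC37A4, the glucose phosphate carrier of the endoplasmic reticulum (11.6 and 27.6 CPM), while glucose phosphatase G6PC had 0 counts in both libraries.

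Of 19 glycogen and sugar nucleotide genes 3 were higher and 1 lower (median 0.23). PPP1R3B, which targets a phosphatase to glycogen, stood at 8.65 and 98.3 CPM, and UGDH, which makes UDP-glucuronate, at 26.6 and 138 CPM with neighbours at 0.90. PYGL, the liver glycogen phosphorylase, stood at 104 and 39.0 CPM with neighbours at -0.64. Of 11 genes of the hexosamine, serine and glycerol branches 0 were higher and 1 was lower, PHGDH, the first enzyme of serine synthesis (26.4 and 9.12 CPM).

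Among 16 transcription factors and regulators 4 were higher and 2 lower (median -0.06). EPAS1, which encodes HIF2A, stood at 27.1 and 84.2 CPM and MYC at 71.1 and 147 CPM. ARNT2, a partner of HIF proteins, stood at 27.4 and 0.287 CPM. ARNT, also a partner of HIF proteins and named with its values already known, had 91.5 and 79.0 CPM and was not called. HIF1A, named with its values already known, had 340 and 196 CPM. NFE2L2, which encodes NRF2, had 170 and 181 CPM. KEAP1, of the same list, had 40.8 and 25.2 CPM with neighbours at -0.76. Neither was called, and both are named with their values already known. These are mRNA levels, and HIF proteins are known to be controlled mainly by their stability.

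**Figure D4:**
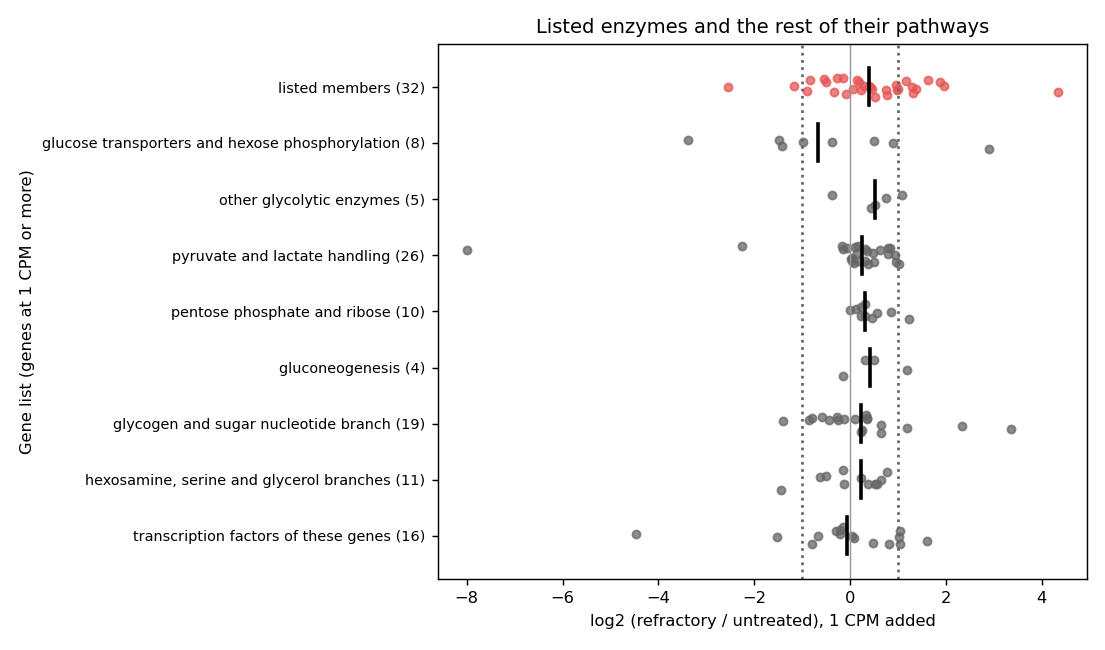
Log2 of refractory over untreated with 1 CPM added (horizontal axis) for the 32 described members (top row) and the described genes of 8 other lists, 1 point per gene with random vertical scatter; the black bar is each list's median, numbers in brackets count genes, and dotted lines mark a 2-fold difference. The members' median is 0.40, that of other sugar carriers and kinases is -0.67, and LDHB is the point farthest left.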

How the data were processed

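The authors deposited 1 table of expected counts (estimated reads per gene) and FPKM for both libraries, per the file headers, with their own log2 fold change and p-value, which set 1 library against 1. The submitters' processing notes name STAR 2.7.0e, RSEM 1.2.28, edgeR 3.26.8 and bcl2fastq 2.20, and the builds GRCh38 and GRCm38. Their roles, the annotation and the handling of mouse reads were not given in the sources used here. Where both counts were above 50, the authors' log2 fold change matched scaled counts, refractory over untreated, to within 0.00387 over 13005 genes.

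Counts were rounded and scaled with TMM (edgeR 4.0.16, R 4.3.3). Genes at 1 CPM or more in either library were described, log2 used 1 CPM added, which understates low genes, and 2-fold was called. Ratios are of CPM with nothing added, and different genes were compared by FPKM. Coordinates are the coding start (from 1) and end in the table, on GRCh38. The members and lists were chosen with earlier results of these data known. All members are accounted for. Of other genes, up to 2 per list and direction with the largest change past 2-fold at 5 CPM or more are named, and any other was picked by its values. Calls and intervals were tested on simulated Poisson counts. These hold no variation between tumours, so the test covers counting error only. Alternatives were 3 other scalings (1 with DESeq2 1.42.0 size factors), pseudocounts, filters, thresholds, TPM from FPKM, and removal of trends with length, GC content or chromosome neighbours.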

Additional observations from a re-analysis of the deposited data

How the results depend on the processing

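No paired analysis was possible because each group has 1 library, and for the same reason none could be left out. The smallest count behind a called member was 62 (FBP1). Of the 10 called members 8 kept their call and direction under every alternative for scaling, pseudocount, filter, unit, trend and neighbourhood, and 0 of them changed sign. ENO1 (0.88) and PGD (0.64) were lost, and PGK1 (1.05) gained, when the neighbours' median was subtracted, which left 7 members higher. With GC and length trends removed (GC known for 94.6% of genes) 4 members were lower, PKM (-1.01) and PGM1 (-1.03) joining. With 0.1 CPM added 10 members were higher, PFKFB4 (1.21) and PCK2 (1.10) joining. By TPM, 3 were lower. At 1.5-fold 13 members were higher and 4 lower, and at 4-fold 1 and 1. The members' median log2 was 0.38 by total count, 0.37 by total count without the 50 most abundant genes, 0.41 with 0.1 CPM added, 0.30 by TPM, 0.37 without the length trend, 0.33 without the GC and length trend and 0.32 with neighbours subtracted. The median of all described genes moved by at most 0.10 under these settings, other than neighbours subtracted, for which it was not computed. With 5 CPM added, 7 of the other pathway genes were higher. By read counts in place of FPKM the share of SLC2A1 changed by 10.5 points (9.83 by FPKM), HK1 by -14.2 (-11.9) and PGAM1 by 0.266 (0.649). With the other listed pathway genes of each family counted, SLC2A1 changed by 14.7 and HK1 by -30.6 points. ACGTG alone was found in 33.3% of the members' windows (21.4% of all windows) and GCGTG alone in 37.0% (36.5%). The causes of these shifts were not tested.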

Other observations

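Glycogen phosphorylase, which releases glucose phosphate from glycogen, showed an exchange of isozymes of the size seen for phosphofructokinase. PYGB, the brain form, named with its values already known, had 96.7 CPM in the untreated tumour against 222 CPM in the refractory one, 2.30-fold higher (95% interval 2.23 to 2.36), while PYGL was 2.66-fold lower (95% interval 2.54 to 2.79). The ratio of PYGB to PYGL in FPKM was 0.620 in the untreated and 3.79 in the refractory tumour. The neighbours' median log2 was -0.64 around PYGL and 0.13 around PYGB, where it was 0.18 around PFKM and 0.29 around PFKP. The part of these neighbourhood shifts in the exchange was not tested. The muscle form PYGM stood at 1.12 and 1.30 CPM.

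TIGAR had a ratio of 0.684 by CPM, while its FPKM was 16.4 in the untreated and 14.3 in the refractory tumour. The ratio of counts to FPKM, which reflects the transcript length assumed for a gene in a library, was 0.774 times as large in the refractory as in the untreated tumour, relative to the median gene. Of 12978 described genes above 50 counts in both libraries, 40 (0.308%) had a value that low or lower, and the other 32 members were within 10% of the median gene. Which transcripts of TIGAR the reads came from was not tested, since the table gives 1 value per gene.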
